A study of Homo sapiens with 4 samples.

Results

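The nuclear-encoded respiratory chain genes are those whose symbols name a subunit of complexes I to V or cytochrome *c*, and the rule used symbols and no measured value, although it was set with earlier results of these data known. They numbered 87 of the 28278 gene symbols in the count table. Complex I had 37 of them, complex II 4, complex III 11, complex IV 15 with *NDUFA4* counted there by function, complex V 19, and *CYCS*, the cytochrome *c* gene, made 1. The symbol rule left out *COX4I1*, the main isoform of complex IV subunit 4, and 4 more genes, which are described apart. It took in *UQCRBP1*, an annotated pseudogene, and *UQCRHL*, a near copy of *UQCRH*.

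Complexes I and II of the inner mitochondrial membrane pass electrons from NADH and succinate to ubiquinone, complex III passes them to cytochrome *c*, and complex IV passes them to oxygen. Complexes I, III and IV pump protons, and complex V, the ATP synthase, makes ATP from the proton gradient. Most subunits are encoded in the nucleus, and the others, which form much of the membrane cores of complexes I, III, IV and V, are encoded by mitochondrial DNA.

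RNA-seq was measured in cells given as HepG2, a human hepatocellular carcinoma line. It compared gene expression in Sorafenib-treated *USP22* knockout and control cells. Both groups were cell populations infected with lentivirus carrying Cas9, with a control single guide RNA in the control group and a guide RNA against *USP22*, a deubiquitinase of histone H2B, in the group called sgUSP22. Both groups then received Sorafenib, a multikinase inhibitor, at 10 µM for 24 h, so no library shows cells without the drug. There were 2 libraries per group, and the labels do not state that they came from separate cultures, so p-values measure only the spread between these libraries.

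Total counts ranged from 62030307 to 64728272. A count of 0 in 1 library allows up to 3 counts, or 0.0457 to 0.0492 CPM (counts scaled to library size), a floor for counting error alone. The transcript of *USP22* had control counts of 16450 and 16537 and sgUSP22 counts of 20279 and 20368. It was thus higher, not lower, in the libraries labelled sgUSP22 (log2 fold change 0.22, SE 0.034, edgeR adjusted p = 0.000394), and every direction below follows the label. The authors checked the knockout by Western blot, a measure of protein, whereas these counts measure RNA. Of 24 marker genes of hepatocytes and HepG2, 20 had fewer than 20 counts in every library. Of the 24, 11 were listed at 0 in all 4 libraries, *ALB*, *APOA1* and *TTR* among them. *AFP* had at most 4 counts, *HNF4A* at most 9 and *SERPINA1* at most 7, while *KRT8* and *KRT18* had 38104 to 62855 counts. Most of these markers thus did not bear out the HepG2 label, which was followed here. The summed level of the 24 genes was 1766 and 1804 CPM in the control libraries and 1384 and 1324 CPM in the sgUSP22 libraries. Nearly all of it was *KRT8* (763 and 788 to 611 and 590 CPM) and *KRT18* (993 and 1010 to 762 and 725 CPM). The sum thus describes these genes and not the 24 as a set. Among 8 fibroblast genes, 7 were tested, of which *DCN* (624 and 585 to 5191 and 4996 counts), *LUM* (4283 and 3743 to 11988 and 12071 counts) and *COL3A1* (30410 and 31662 to 37872 and 36728 counts) rose and *PDGFRB* (548 and 551 to 324 and 266 counts) and *VIM* (65720 and 66580 to 54526 and 52054 counts) fell. The summed level of the 8 stayed between 1708 and 1730 CPM in all libraries, but it was led by *VIM*, which fell, and *COL3A1*, which rose. The part of these shifts in the results below was not tested, and in bulk RNA a different mix of cells and a different level per cell cannot be told apart.

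Most respiratory chain genes were slightly lower in the sgUSP22 libraries. After normalisation, 82 of the 87 genes passed a filter on low counts and were tested with edgeR (quasi-likelihood), with p-values adjusted by Benjamini-Hochberg over all 15150 tested genes. Of the 82, 43 fell, or 52.4%, where 25.8% of all tested genes fell, and 4 rose, or 4.88%, where 26.8% of all tested genes rose. Among tested genes of at least 5 log2 CPM, a range that holds most of the chain, 35.5% fell and 34% rose. The median log2 fold change of the 82 genes was -0.17 beside 0.0009 for all tested genes, the range was -0.65 to 0.24, and 65 were below zero. The changes were small: 3 genes (*NDUFB8*, *ATP5F1D* and *ATP5MD*) fell by at least 1.5-fold and 0 rose by that much, against 7.25% and 8.88% of all tested genes, and 2 of those 3 lie in a chromosome region described below. When the test was made against a 1.5-fold change itself, 0 of the 82 genes passed.

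**Figure D1:**
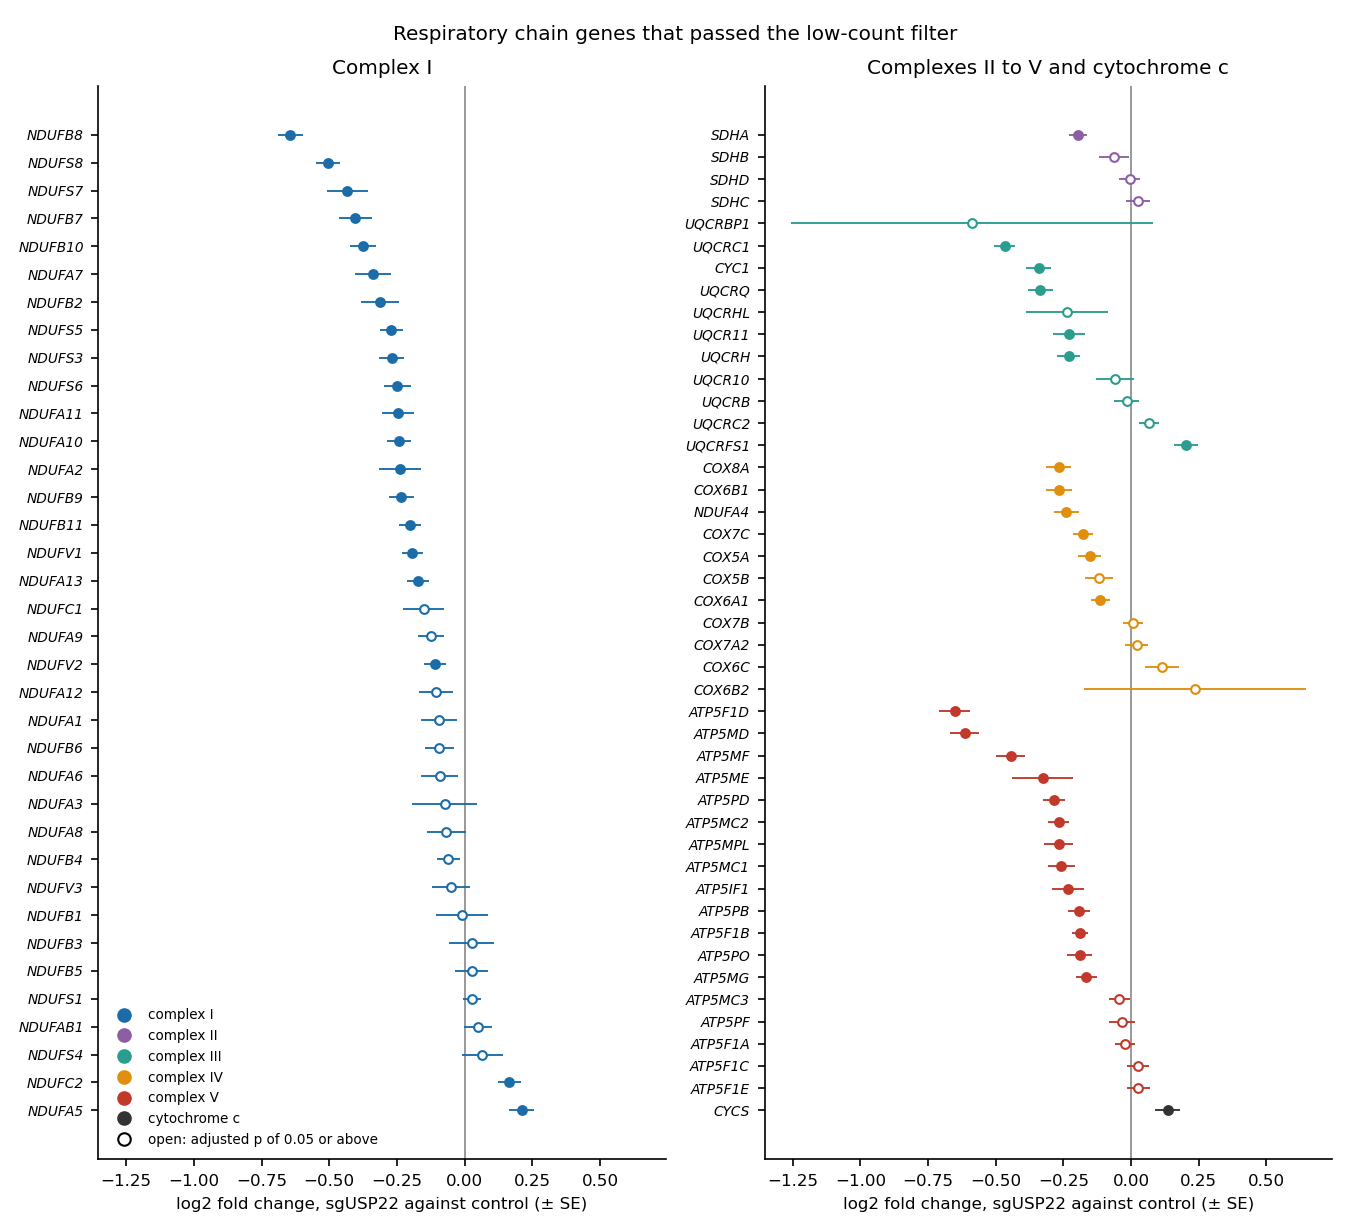
Log2 fold change of sgUSP22 against control (x axis, points with SE bars) for 81 of the respiratory chain genes that passed the low-count filter, by complex, with filled points for edgeR adjusted p below 0.05. Of the 81 points, 64 lie below zero, from *ATP5F1D* at -0.65, and the wide bars belong to *UQCRBP1* and *COX6B2*, which had few counts.

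The libraries themselves gave the same order. The sgUSP22 libraries had median differences over the 82 genes of -0.16, -0.14, -0.20 and -0.19 on the log2 scale in the 4 pairings with a control library. Control replicate 2 differed from control replicate 1 by a median of 0.015, and sgUSP22 replicate 2 from sgUSP22 replicate 1 by -0.040, with 63 of the 82 genes lower in the former. The groups did not overlap for 54 genes in the lower direction, where 37.6% of all tested genes had no overlap that way, and for 8 genes in the higher direction, where the share was 38.3%.

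Summed over its genes, every complex was lower in both sgUSP22 libraries. The summed level of all members was 9556.3 and 9623.3 CPM in the control libraries and 8751.1 and 8459.7 CPM in the sgUSP22 libraries, a difference of -10.3%. The difference was -10.3% for complex I, -7.49% for complex II, -13.9% for complex III, -8.26% for complex IV and -11.3% for complex V, while *CYCS* differed by 9.87% in the other direction. The same sum over all tested genes differed by -3.55%. That value is set by the normalisation factors of the libraries (0.983 and 0.981 for control, 1.015 and 1.021 for sgUSP22). It is thus no measured change and no baseline for the complexes. The sums are led by the most abundant genes, *ATP5F1B* above all, and were not tested.

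**Figure D2:**
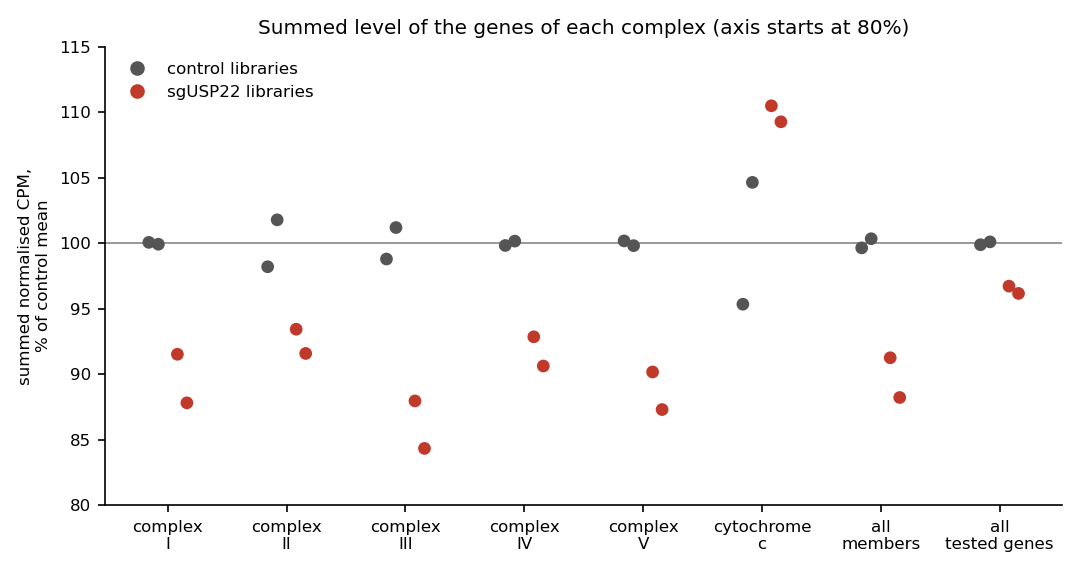
Summed normalised CPM of the genes of each complex in each library, as a percentage of the mean of the control libraries (y axis, starting at 80%). Both sgUSP22 libraries lie below both control libraries for complexes I to V, and above them for cytochrome *c*. The mean difference for all tested genes, -3.55%, is set by the normalisation factors and is not a measured change.

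Complex I had 18 of its 37 genes lower and 2 higher, with a median log2 fold change of -0.12. Its catalytic core, which binds FMN and the iron-sulphur clusters, is represented by 7 nuclear genes, of which 5 fell. *NDUFS8* (an iron-sulphur subunit next to the ubiquinone site) had 90.4 and 93.9 CPM in the control libraries and 63.6 and 66.3 CPM in the sgUSP22 libraries. Both sgUSP22 values were well under both control values, with a log2 fold change of -0.50 (SE 0.045, edgeR adjusted p = 1.16e-05). *NDUFS7*, which carries the last cluster before ubiquinone, fell from 2254 and 2385 to 1953 and 1677 counts (log2 fold change -0.43, SE 0.076, edgeR adjusted p = 0.000926). *NDUFS3*, *NDUFV1* (which binds NADH and FMN) and *NDUFV2* fell by 0.27, 0.19 and 0.11 on the log2 scale. The call of *NDUFV2* was lost without control replicate 2 or without either sgUSP22 library, at values from -0.12 to -0.078. *NDUFS1*, the largest core subunit, had 233 and 235 CPM in the control libraries and 240 and 238 CPM in the sgUSP22 libraries. The gap between the groups was small beside its error, with a log2 fold change of 0.028 (SE 0.034, edgeR adjusted p = 0.522).

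The accessory subunits of complex I surround the core and serve its assembly and stability. Of the 11 *NDUFB* genes, whose products sit in the distal part of the membrane arm, 6 fell and 0 rose. *NDUFB8* (ENSG00000166136.16, hg38 chr10:100523740-100530000, minus strand) had control counts of 6011 and 6420 and sgUSP22 counts of 4346 and 4050. At 98.6 and 103 CPM against 66.1 and 62.7 CPM the groups were far apart, and the log2 fold change was -0.64 (SE 0.046, edgeR adjusted p = 2.83e-06). *NDUFB7* and *NDUFB10* fell by 0.40 and 0.38 on the log2 scale, whereas *NDUFB1*, *NDUFB3*, *NDUFB4*, *NDUFB5* and *NDUFB6* did not pass, with values from -0.093 to 0.026. Of the other 19 accessory genes 7 fell and 2 rose. *NDUFA5*, a subunit of the peripheral arm, had 59.8 and 61.6 CPM in the control libraries and 69.8 and 70.6 CPM in the sgUSP22 libraries. Both sgUSP22 values were above both control values, with a log2 fold change of 0.21 (SE 0.045, edgeR adjusted p = 0.00318). *NDUFC2*, a subunit of the membrane arm, rose from 114 and 119 CPM to 133 and 128 CPM (log2 fold change 0.16, SE 0.042, edgeR adjusted p = 0.00749), and no longer passed without control replicate 1 (0.13) or sgUSP22 replicate 1 (0.12). *NDUFAB1*, the mitochondrial acyl carrier protein, had a log2 fold change of 0.050 and *NDUFS4*, a subunit needed for a stable peripheral arm, one of 0.065, and neither passed.

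Complex II, which is also the succinate dehydrogenase of the citric acid cycle, has 4 nuclear genes and no mitochondrially encoded subunit. *SDHA*, the flavoprotein that oxidises succinate, had 466 and 481 CPM in the control libraries and 412 and 414 CPM in the sgUSP22 libraries. The groups were separate, and the log2 fold change was -0.20 (SE 0.033, edgeR adjusted p = 0.00068). *SDHB*, the iron-sulphur subunit, and *SDHC* and *SDHD*, the membrane anchors, had overlapping libraries and log2 fold changes of -0.065, 0.025 and -0.0046 that did not pass, although *SDHB* did without sgUSP22 replicate 1 (-0.16).

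In complex III, 5 of 11 genes fell and 1 rose, with its 2 nuclear-encoded redox subunits going in opposite directions. Of the redox subunits, *CYC1* (cytochrome *c*1) had 264 and 285 CPM in the control libraries and 223 and 210 CPM in the sgUSP22 libraries. It fell with a log2 fold change of -0.34 (SE 0.046, edgeR adjusted p = 0.000166). *UQCRFS1*, the Rieske iron-sulphur protein, had 64.8 and 65.3 CPM in the control libraries and 76.1 and 73.7 CPM in the sgUSP22 libraries, and rose (log2 fold change 0.20, SE 0.044, edgeR adjusted p = 0.00333), though without sgUSP22 replicate 1 it had 0.17 and did not pass. Of the core proteins, *UQCRC1* fell from 323 and 327 CPM to 242 and 228 CPM (log2 fold change -0.47, SE 0.039, edgeR adjusted p = 7.28e-06). Its partner *UQCRC2* had 185 and 183 CPM against 189 and 196 CPM, with a log2 fold change of 0.067 (SE 0.037, edgeR adjusted p = 0.158). The ubiquinone-binding subunit gene *UQCRQ* fell by 0.34 and the small subunit genes *UQCRH* and *UQCR11* by 0.23 each on the log2 scale. *UQCRB* and *UQCR10* had -0.016 and -0.059 and did not pass. *UQCRBP1* had 9 to 17 counts, which is too few to place, and *UQCRHL* had 268 to 343 counts that could be reads of *UQCRH*.

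Changes in complex IV were small. Of its 15 genes 11 were tested, and 6 of these fell and 0 rose, with a lowest log2 fold change of -0.27. *COX8A*, the smallest membrane subunit, had 103 and 109 CPM in the control libraries and 90.6 and 85.5 CPM in the sgUSP22 libraries, and fell (log2 fold change -0.27, SE 0.046, edgeR adjusted p = 0.000872). *COX6B1*, at the face toward cytochrome *c*, fell by 0.27, *NDUFA4* by 0.24, *COX7C* by 0.18 and *COX6A1* by 0.11 on the log2 scale. *COX5A*, a matrix-side subunit, had 107 and 101 CPM against 94.9 and 92.2 CPM (log2 fold change -0.15, SE 0.044, edgeR adjusted p = 0.0145). *COX5B*, which binds zinc on the same side, had 102 and 104 CPM against 100 and 90.0 CPM and did not pass (log2 fold change -0.12, SE 0.052, edgeR adjusted p = 0.082). The calls of *COX5A* and *COX6A1* were lost without control replicate 1 or sgUSP22 replicate 2, at -0.11 and -0.13 for *COX5A* and -0.12 and -0.10 for *COX6A1*, and that of *COX6A1* also without control replicate 2 (-0.11). *COX5B* passed without sgUSP22 replicate 1 (-0.21) and *COX6C* as higher without control replicate 1 (0.205). *COX7B*, *COX7A2* and *COX6C* had 0.0060, 0.021 and 0.11 and did not pass either.

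Of the isoform pairs of complex IV, the widely expressed isoform held nearly all counts in every library. The isoforms known from heart and skeletal muscle or testis, *COX6A2*, *COX7B2* and *COX8C*, were listed at 0 in all 4 libraries, and *COX7A1* had 4 counts in sgUSP22 replicate 1 and 0 in the others. *COX6B2*, known from testis, had control counts of 27 and 43 and sgUSP22 counts of 43 and 44. These values are close to the filter, and its log2 fold change of 0.24 had an SE of 0.41 (edgeR adjusted p = 0.663). *ATP5MGL*, a near relative of *ATP5MG*, was also listed at 0 in every library and was, with *COX6A2*, *COX7A1*, *COX7B2* and *COX8C*, 1 of the 5 genes not tested.

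Complex V had the largest share of genes that fell, with 13 of 18 tested, and 0 that rose, around a median log2 fold change of -0.21. All 5 tested genes of the small membrane subunits, which sit beside the proton channel and link the enzyme into dimers, fell, with a median of -0.33. *ATP5MD* (annotated as *ATP5MK*) had control counts of 3132 and 3115 and sgUSP22 counts of 2216 and 2093. At 51.4 and 49.9 CPM against 33.7 and 32.4 CPM its groups were clearly separate, and the log2 fold change was -0.61 (SE 0.055, edgeR adjusted p = 1.13e-05). *ATP5MF* fell by 0.44, *ATP5ME* by 0.33, *ATP5MPL* (annotated as *ATP5MJ*) by 0.27 and *ATP5MG* by 0.17 on the log2 scale. In the peripheral stalk, which holds the head still while the rotor turns, *ATP5PD*, *ATP5PB* and *ATP5PO* fell by 0.28, 0.19 and 0.19, and *ATP5PF* at -0.034 did not pass. *ATP5IF1*, which encodes the inhibitor of ATP hydrolysis, fell by 0.23.

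In the catalytic head and central stalk of complex V, 2 of 5 genes fell. *ATP5F1D*, the delta subunit of the central stalk, had control counts of 3654 and 3874 and sgUSP22 counts of 2665 and 2396. At 59.9 and 62.1 CPM against 40.6 and 37.1 CPM it was the gene of the chain with the lowest log2 fold change, -0.65 (SE 0.058, edgeR adjusted p = 1.13e-05). *ATP5F1B*, the catalytic beta subunit, had control counts of 80831 and 84189 and sgUSP22 counts of 78252 and 74505, and fell after normalisation (log2 fold change -0.19, SE 0.030, edgeR adjusted p = 0.000448). *ATP5F1A*, the alpha subunit that alternates with beta in the same ring, had 428 and 419 CPM against 428 and 405 CPM. Its libraries overlapped, and the log2 fold change was -0.024 (SE 0.037, edgeR adjusted p = 0.621). *ATP5F1C* and *ATP5F1E*, the other central stalk genes, had 0.025 and 0.028 and did not pass. Once each library was adjusted for GC and length, as described below, 4 of the 5 fell, *ATP5F1A* at -0.13 (edgeR adjusted p = 0.0189) and *ATP5F1E* at -0.16 (edgeR adjusted p = 0.00902) among them. The difference between these subunits was not tested.

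Subunit *c*, the rotor ring of complex V, is made as the same mature protein from 3 genes. *ATP5MC1* and *ATP5MC2* fell by 0.26 and 0.27 on the log2 scale, and *ATP5MC3* had a log2 fold change of -0.043 (SE 0.038, edgeR adjusted p = 0.369). As a share of the counts of the 3 genes, *ATP5MC3* had 34.5% and 33.8% in the control libraries and 37.7% in both sgUSP22 libraries. *ATP5MC2* had 47.1% and 46.7% against 44.6% or less, and *ATP5MC1* stayed between 17.7% and 19.4%. These are shares of reads and not of transcripts, since the 3 transcripts differ in length. After the same adjustment *ATP5MC3* fell (-0.21, edgeR adjusted p = 0.00099), while *ATP5MC1* (-0.049) and *ATP5MC2* (-0.060) no longer passed.

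*CYCS*, the mobile carrier between complexes III and IV and also a trigger of apoptosis once it leaves the mitochondrion, had 179 and 197 CPM in the control libraries and 208 and 205 CPM in the sgUSP22 libraries. Both sgUSP22 values were above both control values, but nearer to the higher control than the controls were to each other, and the log2 fold change was 0.14 (SE 0.046, edgeR adjusted p = 0.0315). The annotation names 42 pseudogenes after *CYCS*, whose reads could not be told apart from its own here. Without control replicate 1 (0.0695) or without either sgUSP22 library (0.12 and 0.14) *CYCS* no longer passed.

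**Figure D3:**
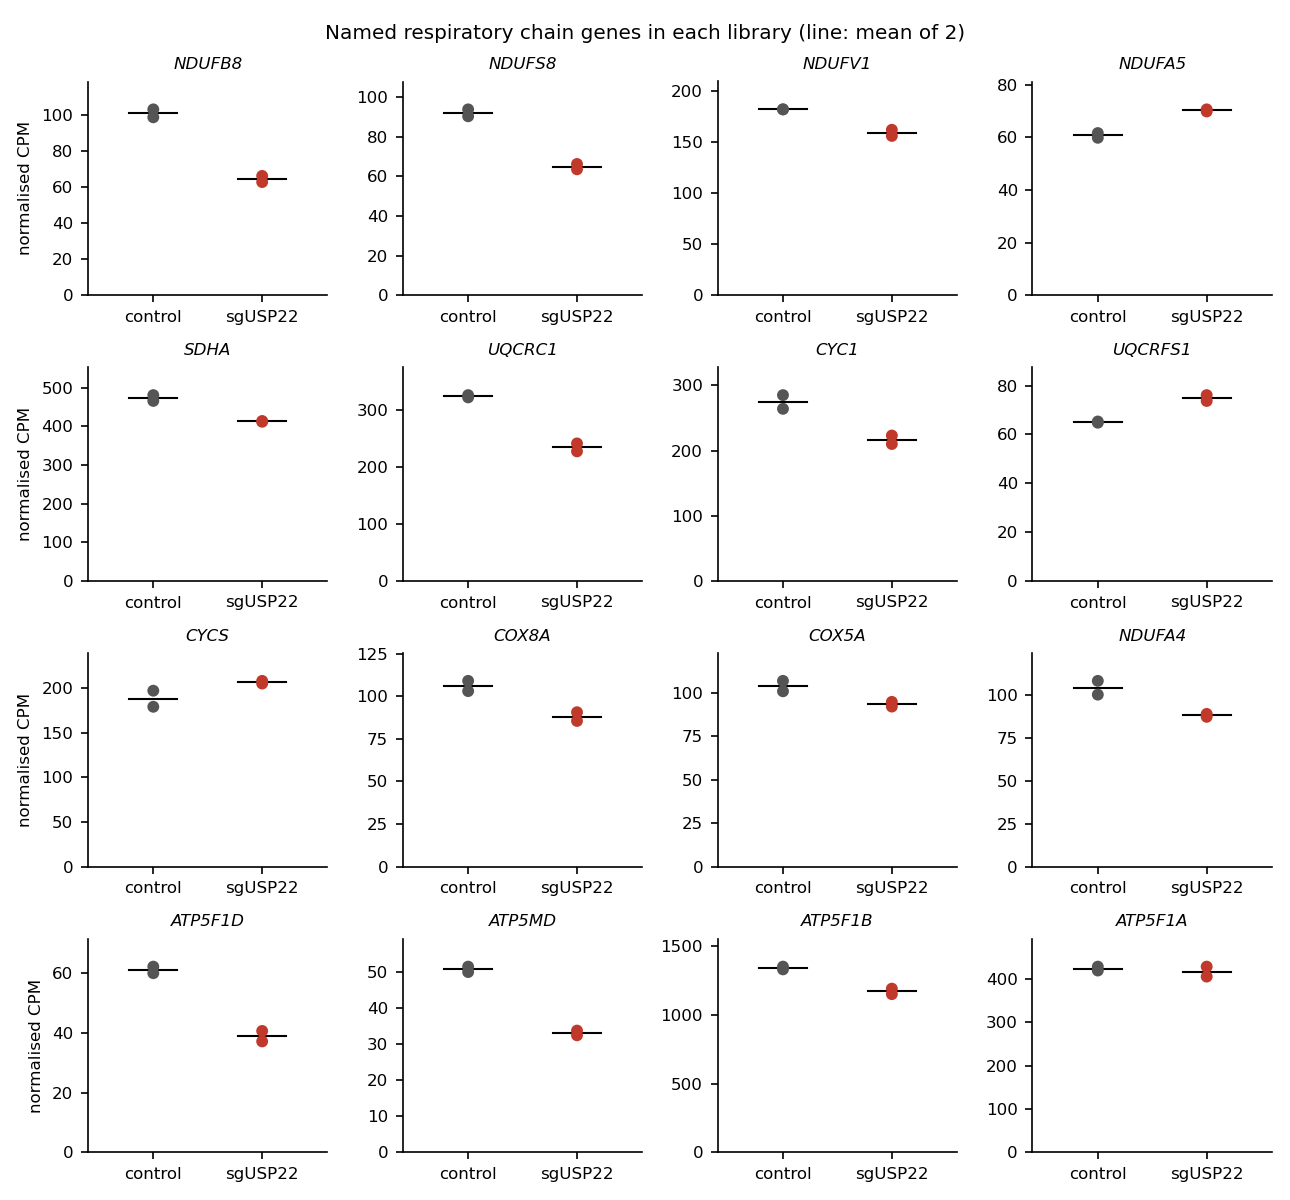
Normalised CPM (y axis, from 0) of 16 respiratory chain genes in each library, with a line at the mean of each pair. *NDUFB8*, *NDUFS8*, *UQCRC1*, *ATP5F1D* and *ATP5MD* show the widest gaps downward, *NDUFA5*, *UQCRFS1* and *CYCS* small gaps upward, and the libraries of *ATP5F1A* overlap.

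The log2 fold changes went with the base composition and length of the annotated transcripts. Across the 80 members of at least 1 log2 CPM, the log2 fold change and the GC content of the annotated transcript had Pearson's r = -0.678 and Spearman's rho = -0.692. Across the 11733 tested genes of at least 1 log2 CPM with annotation, r was -0.239. These are correlations across genes, which share the 4 libraries. Of 28 members with GC content under 45%, 5 fell and 4 rose, with a median log2 fold change of -0.0077. Of 37 members between 45% and 55%, 23 fell and 0 rose, and of 17 members of 55% or more, 15 fell and 0 rose. All 4 genes that rose thus lay under 45%. Among all tested genes with annotation in that range, 16.1% fell and 41.1% rose, where 17.9% and 14.3% of members did. Between 45% and 55%, 27.8% of them fell and 23.8% rose, and at 55% or more 36.4% fell and 15.4% rose. Among those with at least 5 log2 CPM, 19% fell and 49.5% rose under 45%, and 39.4% fell and 28% rose between 45% and 55%. At 55% or more, 57.7% of those with at least 5 log2 CPM fell and 16.1% rose.

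Short, abundant transcripts outside the respiratory chain were lower as well. Of 33 members of at least 5 log2 CPM with an annotated transcript under 800 bases, 25 fell, or 75.8%, and 0 rose. Their median log2 fold change was -0.25. Of the 176 other tested genes in the same range of abundance and length, 127 fell, or 72.2%, and 16 rose, or 9.09%. Their median was -0.26. Of 37 longer members of that abundance, 15 fell, or 40.5%, and 4 rose, or 10.8%, with a median of -0.093. Among 6264 other long genes, 34.2% fell and 35% rose, with a median of -0.0024. The difference between members and other genes was not tested.

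With the trend of GC content alone removed from each library, an alternative chosen after seeing the data, 46 members fell, where 25.6% of all tested genes fell, and 1 rose, where 24.3% did, with a median log2 fold change of -0.16. With trends of GC content and transcript length both removed, 27 members fell, or 32.9%, where 25% of all tested genes fell, and 4 rose, where 23.3% of all tested genes rose. The median log2 fold change moved to -0.073, and 0 members reached a 1.5-fold change. Across the 80 members of at least 1 log2 CPM, Pearson's r of the log2 fold change with log2 transcript length was 0.40 before this correction and -0.34 after it. Of the 27 genes, 21 were among the 43 without the correction. *NDUFB8* (-0.45, edgeR adjusted p = 2.14e-05), *ATP5F1D* (-0.34, edgeR adjusted p = 0.000376), *ATP5MD* (-0.53, edgeR adjusted p = 2.58e-05), *UQCRC1* (-0.28, edgeR adjusted p = 7.89e-05) and *NDUFS8* (-0.23, edgeR adjusted p = 0.00247) stayed lower. By complex, 11 of 18 tested genes of complex V (61.1%), 5 of 11 of complex III (45.5%) and 3 of 11 of complex IV (27.3%) fell after the correction. In complex II 1 of 4 (25%) and in complex I 7 of 37 (18.9%) fell, beside 25% of all tested genes. *UQCRFS1* and *NDUFC2* stayed higher at 0.14 each, with edgeR adjusted p of 0.025 and 0.0172, while *CYCS* moved to -0.037 and *NDUFA5* to -0.10 and neither passed. Genes that fell only without the correction included *NDUFS7* (-0.13), *NDUFS3* (-0.096), *NDUFV1* (0.0091) and *NDUFV2* (-0.055) of the complex I core and *NDUFB7* (-0.097). They also included *UQCR11* (-0.086), *COX8A* (-0.012), *COX6B1* (-0.052), *COX6A1* (0.085), *ATP5ME* (0.018), *ATP5MC1* (-0.049), *ATP5MC2* (-0.060), *ATP5PO* (-0.10) and *ATP5IF1* (-0.049). *COX7A2* and *NDUFAB1* passed as higher with this correction alone. *NDUFS1* moved to -0.23 (edgeR adjusted p = 0.000447), but its annotated transcript of 11660 bases, like those of *UQCRB* (8459) and *NDUFA9* (8356), is far longer than those of most subunits, so that its correction rests on that annotation.

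**Figure D4:**
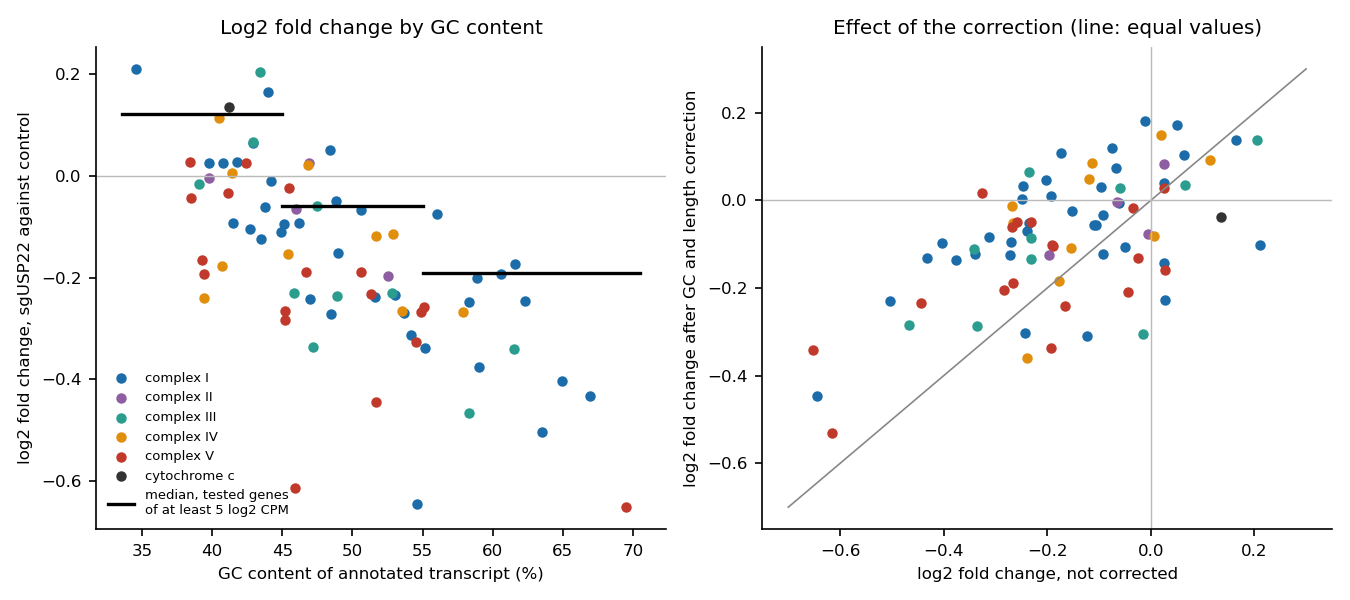
Left, log2 fold change of 79 respiratory chain genes (y axis) against the GC content of the annotated transcript (x axis, %), with black lines at the median of all tested genes of at least 5 log2 CPM in 3 ranges of GC content. Right, the same log2 fold changes before (x axis) and after (y axis) the correction for GC content and length, where the median of the 82 tested members moves from -0.17 to -0.073.

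Position in the genome also went with some values. *NDUFB8* and *ATP5MD* are the members that start beyond 40 Mb on chromosome 10. The median log2 fold change over the 325 other tested genes of at least 1 log2 CPM there was -0.41. *ATP5F1C*, the remaining member on chromosome 10, lies before that boundary and had 0.025. *NDUFA4* and *CYCS* start between 10 and 40 Mb on chromosome 7, where 83 other genes of that abundance had a median of -0.30. On chromosome 19, 8 of 11 members fell, *ATP5F1D* among them, with a median of -0.25 beside -0.17 for 723 other genes of that abundance. The DNA copy number of these regions is not analysed here, and its part in the values was not tested. Without the members of the regions on chromosomes 7 and 10, 40 genes fell and 3 rose, and *ATP5F1D* was the 1 gene that fell by at least 1.5-fold.

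Promoter sequences were taken from RefSeq (GRCh38.p14) for 69 of the 87 members, in 81 windows from 250 bases before to 50 bases after a gene start. Nuclear respiratory factor 1 (NRF1), GA-binding protein of the ETS family and YY1 are known regulators of respiratory chain genes, and their core letters were searched on both strands. The NRF1 letters GCATGCGC stood in 19.8% of member windows and in 3.05% of all 35116 windows of the same length. The ETS letters CCGGAAGT stood in 14.8% against 4.14% and the YY1 letters AAGATGGCG in 12.3% against 1.75%. The letters TCAAGGTCA of estrogen-related receptors stood in 1.23%, which is 1 member window, against 0.353%. The 35116 windows were not limited to tested genes. Counted by gene, the NRF1 letters were held by 21.7% of the 69 members and 6.14% of 11359 tested genes with a window. These shares were 17.4% and 9.28% for ETS, 13% and 4.38% for YY1, and 1.45% and 0.282% for estrogen-related receptors. Matches of different motifs overlapped in 0 member windows, and 29 members held at least 1 motif. The NRF1 letters stood before genes that fell and genes that rose. Of 15 tested members with the NRF1 letters, 5 fell and 2 rose, with a median log2 fold change of -0.067, and of 51 without them 31 fell and 1 rose, with a median of -0.19. Of 12 with the ETS letters 7 fell and 0 rose, and of 54 without them 29 fell and 3 rose. Of 9 with the YY1 letters 4 fell and 0 rose, and of 57 without them 32 fell and 3 rose. A match describes the letters only and says nothing about binding in these cells.

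The stretches below lie before the RefSeq start of each gene, although the end of the *ATP5ME* stretch lies within a longer transcript annotated for that gene, and are shown because 2 genes that rose (*CYCS* and *NDUFA5*) and 1 that fell (*ATP5ME*) shared the NRF1 letters, and 2 that fell (*COX8A* and *ATP5MD*) shared the ETS letters. Of these genes, only *ATP5MD* passed after the GC and length correction. Each stretch runs 5′ to 3′ on the strand of its gene, with the motif or its reverse complement in capitals. They lie at chr7:25125386-25125465 (*CYCS*, minus strand), chr7:123557933-123558012 (*NDUFA5*, minus strand), chr4:674311-674390 (*ATP5ME*, minus strand), chr11:63974540-63974619 (*COX8A*, plus strand) and chr10:103396592-103396671 (*ATP5MD*, minus strand), and the first base of the motif is 169, 158, 78, 19 and 160 bases before the start in that order.
CYCS: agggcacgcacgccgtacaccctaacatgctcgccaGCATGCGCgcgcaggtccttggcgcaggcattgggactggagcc
NDUFA5: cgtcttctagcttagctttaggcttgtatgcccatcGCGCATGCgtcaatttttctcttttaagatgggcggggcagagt
ATP5ME: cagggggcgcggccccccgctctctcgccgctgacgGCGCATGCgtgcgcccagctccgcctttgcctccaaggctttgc
COX8A: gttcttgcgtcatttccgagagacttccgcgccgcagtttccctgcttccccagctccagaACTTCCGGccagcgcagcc
ATP5MD: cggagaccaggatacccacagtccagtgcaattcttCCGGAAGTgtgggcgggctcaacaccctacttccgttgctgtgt

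Genes of the pathway outside the symbol rule moved in both directions. *COX4I1* had 274 and 266 CPM in the control libraries and 250 and 246 CPM in the sgUSP22 libraries, and fell (log2 fold change -0.12, SE 0.035, edgeR adjusted p = 0.0135). *COX7A2L*, which helps to join complexes III and IV, had 0.10 and did not pass, *DMAC2L*, known as coupling factor B of complex V, rose by 0.33, and *COX4I2* and *NDUFA4L2*, isoforms linked to low oxygen, had at most 29 counts in any library. With the GC and length correction *COX4I1* (0.049, edgeR adjusted p = 0.236) and *DMAC2L* (0.25, edgeR adjusted p = 0.122) no longer passed. The 13 mitochondrially encoded subunits are not analysed here.

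Assembly factors help to build the 5 complexes without being part of them. Of 59 tested, 16 fell, or 27.1%, beside 25.8% of all tested genes, and 10 rose, or 16.9%, beside 26.8%, with a median log2 fold change of -0.010. After the GC and length correction 28.8% of them fell, beside 32.9% of the members. *COX15*, which makes heme *a* for complex IV, fell from 93.2 and 92.6 CPM to 54.2 and 52.8 CPM (log2 fold change -0.80, SE 0.044, edgeR adjusted p = 5.87e-07) and lies in the chromosome 10 region. *SCO2*, a copper chaperone of complex IV, had control counts of 109 and 131 and sgUSP22 counts of 290 and 198, and rose (log2 fold change 0.94, SE 0.22, edgeR adjusted p = 0.00538). *COA7*, another complex IV factor, rose by 0.66, and the complex I factors *TMEM186* and *NDUFAF4* rose by 0.65 and 0.54. *TIMMDC1* of complex I and *UQCC2* and *UQCC3* of complex III fell by 0.40, 0.43 and 0.43 on the log2 scale. After the correction *NDUFAF4* had 0.34, *UQCC2* -0.27 and *UQCC3* -0.30, and all 3 still passed. A test between subunits and assembly factors was not made.

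Of 17 regulators of mitochondrial biogenesis, 3 fell, or 17.6%, and 6 rose, or 35.3%, beside 25.8% and 26.8% of all tested genes. *PPARGC1A*, the coactivator PGC-1alpha, had control counts of 610 and 598 and sgUSP22 counts of 1088 and 1053. Its relative *PPARGC1B* had 783 and 817 counts against 1641 and 1463 counts. Both coactivators were higher in both sgUSP22 libraries, with log2 fold changes of 0.75 (SE 0.094, edgeR adjusted p = 0.000106) and 0.88 (SE 0.088, edgeR adjusted p = 2.54e-05), and stayed higher after the GC and length correction at 0.53 and 0.77. *GABPA*, *GABPB1* and *TFB2M* rose by 0.22, 0.21 and 0.20, but none of them passed after that correction, and *POLG*, the mitochondrial DNA polymerase, rose by 0.25. *POLRMT*, the mitochondrial RNA polymerase, fell from 109 and 114 CPM to 71.2 and 69.7 CPM (log2 fold change -0.66, SE 0.043, edgeR adjusted p = 1.52e-06). *PPRC1*, the third coactivator of the family, fell by 0.50 and *TFAM*, which packages mitochondrial DNA, by 0.18, and both lie on chromosome 10 beyond 40 Mb. With the GC and length correction *PPRC1* had -0.45 and *TFAM* -0.46, and both still passed. *NRF1*, *ESRRA*, *YY1*, *TFB1M*, *TEFM*, *TWNK*, *POLG2* and *SSBP1* had log2 fold changes between -0.093 and 0.11 and did not pass. Of these, *TWNK* (0.042) also lies on chromosome 10 beyond 40 Mb, so not every gene of that region was lower. With the GC and length correction *ESRRA* passed as higher (0.14, edgeR adjusted p = 0.0232), and the others of these genes still did not pass.

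The counting of these genes has limits of its own. The annotation names pseudogenes after 50 of the 87 members, and 36 members share exon sequence with another annotated gene, *NDUFB8*, *ATP5MD*, *ATP5ME* and *NDUFC2* among them. The strand setting of the counts is not given in the sources used here, so reads of such partners cannot be told apart.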

How the data were processed

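RNA-seq was measured in 2 control and 2 sgUSP22 libraries of polyA RNA. According to the methods and the submitters' processing notes, the authors aligned reads to hg38 with HISAT2 2.2.1 and deposited whole-number gene counts from StringTie 2.2.1, not normalised for depth. The annotation and strand setting are not given in the sources used here. Columns were assigned by name. The fit used edgeR 4.0.16 under R 4.3.3, with TMM factors, group as the only term, filterByExpr at a minimum count of 10, and glmQLFit followed by glmQLFTest. P-values were adjusted by Benjamini-Hochberg over all 15150 tested genes, and genes passed at an adjusted p below 0.05, with a fold change of 1.5 as a second threshold. CPM values use TMM library sizes. Positions, transcript length and GC content came from the GENCODE annotation of hg38. Both fitting tools were tested on simulated data.

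Members and gene lists were chosen with earlier results of these data known. Named members are the 3 lowest and 3 highest log2 fold changes per complex, the catalytic core, *CYCS*, isoform pairs and those past the 1.5-fold threshold. Members of a described subgroup are also named, and 1 tested member is counted but not reported here on its own. Alternatives were DESeq2 1.42.0, scaling by RLE or by library size alone, the filter left out or raised to a mean count of 50, a replicate block, a test against 1.5-fold, lowess offsets (span 0.3) for GC content and length, and leaving out libraries, pseudogenes or regions. GC offsets alone and leaving out members below 1 CPM were chosen after seeing the data.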

Additional observations from a re-analysis of the deposited data

How the results depend on the processing

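Settings as reported gave 43 members lower, 4 higher, 3 lower by at least 1.5-fold and a median of -0.17. With the replicate block, 43 were lower, 4 higher and 3 lower by at least 1.5-fold. The labels do not say whether same-numbered libraries are paired. Their deviations had a correlation of 0.042 across tested genes, and the block changed no call of a member. The GC and length correction gave 27 lower, 0 by at least 1.5-fold and a median of -0.073, and the GC correction alone, chosen after seeing the data, gave 46 lower, 1 higher (*UQCRFS1*) and 1 (*ATP5MD*) lower by at least 1.5-fold. The test against 1.5-fold gave 0 members, and 578 genes higher and 428 lower over all genes, against 1345 and 1098 as reported. Without the shifted chromosome regions 1 member was lower by at least 1.5-fold. Library size alone gave a median of -0.12. Leaving out each library gave 36 to 45 members lower, 1 to 4 higher and medians of -0.21 to -0.15. Without sgUSP22 replicate 1, *NDUFA5* alone stayed higher.

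Over 41 named members and 12 settings, 414 of 490 values kept direction and side of the threshold, 31 lost it, 12 gained it and 33 turned direction, and the cause was not tested. With library size alone, complex II (median 0.018), *ATP5F1A* (0.028), *ATP5MC3* (0.0089), *SDHD* (0.047) and *UQCRB* (0.036) turned positive. With the GC and length correction, *COX5B* (0.048), *COX6A1* (0.085) and *NDUFV1* (0.0091) turned positive, and *ATP5F1E* (-0.16), *COX7B* (-0.081), *CYCS* (-0.037), *NDUFA5* (-0.10) and *NDUFS1* (-0.23) negative. With the GC correction alone, *ATP5F1C* (-0.064), *ATP5F1E* (-0.16), *COX6C* (-0.021), *COX7A2* (-0.0046), *COX7B* (-0.11), *NDUFA5* (-0.044), *NDUFS1* (-0.074), *NDUFS4* (-0.015) and *UQCRC2* (-0.013) turned negative. Leaving out 1 library gave ranges across zero for complex II (-0.097 to 0.013), *ATP5F1A* (-0.076 to 0.015), *ATP5F1C* (-0.018 to 0.054), *ATP5F1E* (-0.019 to 0.075), *COX6B2* (-0.046 to 0.59), *COX7B* (-0.0011 to 0.0059), *NDUFS4* (-0.018 to 0.13), *SDHB* (-0.16 to 0.013), *SDHC* (-0.032 to 0.084), *SDHD* (-0.034 to 0.013) and *UQCRB* (-0.081 to 0.035). None of these genes had passed the test as reported, except *COX6A1*, *NDUFV1*, *CYCS* and *NDUFA5*. Depth limits *UQCRBP1* and *COX6B2*, which had under 50 counts, and the 5 members not tested, and 2 libraries per group limit all estimates.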

Other observations

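Genes that feed electrons into the chain or carry its products were also measured. Of 17 genes of pyruvate dehydrogenase and the citric acid cycle, 6 fell, or 35.3%, and 5 rose, or 29.4%, where 25.8% of all tested genes fell and 26.8% rose, with 0 at 1.5-fold or more. *IDH3G* and *IDH3B*, subunits of isocitrate dehydrogenase, fell by 0.41 and 0.38 on the log2 scale, and *DLAT*, the acetyltransferase of pyruvate dehydrogenase, and *SUCLA2*, a subunit of succinyl-CoA ligase, rose by 0.28 and 0.32. With the GC and length correction these 4 still passed, at -0.20, -0.23, 0.13 and 0.17. Of 20 tested genes of other electron donors and ubiquinone synthesis, 7 fell, or 35%, and 1 rose, or 5%. *COQ4* and *PDSS2* of ubiquinone synthesis fell by 0.40 and 0.35, and *GPD2*, the mitochondrial glycerol phosphate dehydrogenase, rose by 0.24. With that correction *COQ4* (-0.16, edgeR adjusted p = 0.117) and *GPD2* (0.0066, edgeR adjusted p = 0.906) no longer passed.

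Of 7 carriers and porins, 5 fell, or 71.4%, and 1 rose, or 14.3%, where 25.8% of all tested genes fell and 26.8% rose. Among tested genes of at least 5 log2 CPM, 35.5% fell and 34% rose. The outer membrane channel gene *VDAC2*, which lies on chromosome 10 beyond 40 Mb, had control counts of 17404 and 16715 and sgUSP22 counts of 11271 and 10078 (log2 fold change -0.76, SE 0.0505, edgeR adjusted p = 1.86e-06). Its relative *VDAC3* had 6949 and 7172 counts against 9672 and 9442 counts (log2 fold change 0.36, SE 0.037, edgeR adjusted p = 2.82e-05), and *VDAC1* fell by 0.18. The ADP/ATP carrier gene *SLC25A5* fell by 0.34, and the phosphate carrier gene *SLC25A3* had -0.022 and did not pass. With the GC and length correction 5 of the 7 fell and 2 rose. *SLC25A3* then fell (-0.16, edgeR adjusted p = 0.00151). *SLC25A6* turned from a fall (-0.11, edgeR adjusted p = 0.0154) to a rise (0.0995, edgeR adjusted p = 0.0225).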
